A study of Mus musculus with 6 samples.

Results

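The genes described here are those of the relay between G protein-coupled receptors and cyclic nucleotides: the alpha, beta and gamma subunits of heterotrimeric G proteins, the RGS proteins, the adenylyl cyclases, the phosphodiesterases and the subunits of protein kinase A (PKA). They were chosen by symbol alone, as names that begin with Gna, Gnb, Gng, Rgs, Adcy, Pde, Prkac or Prkar in the pattern of each family. This gave 99 of 23955 genes, of which 68 had enough counts to test. The pattern for Gna does not take in Gnas, the gene of the stimulatory alpha subunit, which is given with the other genes of the pathway. The patterns do take in 7 genes that only share the name, such as Gnb2l1, a ribosome-bound scaffold protein, and Pde4dip, a centrosomal protein that binds a phosphodiesterase. These were kept in the counts.

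The libraries hold mRNA bound to ribosomes that carried a haemagglutinin (HA) tag on the protein Rpl22, 3 from the diencephalon, taken without the tissue around the third ventricle, and 3 from the grey matter of the cerebral cortex, with meninges and white matter removed. All mice were C57BL/6, 3 months old, of both sexes and of the genotype Slc1a3 +/- GFP+ Rpl22HA fl/fl. They carried a tamoxifen-dependent Cre in the locus of Slc1a3, the astrocyte glutamate transporter GLAST, and a Cre-dependent GFP transgene, and received tamoxifen by gavage at 9 weeks in both groups, on 3 occasions. Each library pooled 3 mice, and nothing in the labels says which animals or days libraries of the same number share.

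A receptor that binds its ligand loads GTP onto a G alpha subunit, which parts from the beta and gamma subunits. Alpha subunits of the Gs class stimulate adenylyl cyclases, those of the Gi class inhibit them and those of the Gq class activate phospholipase C. RGS proteins speed GTP hydrolysis and so end the signal. Cyclic AMP made by the cyclases frees the catalytic subunits of PKA from the regulatory ones, and phosphodiesterases break down cyclic AMP, cyclic GMP or both. In astrocytes this relay is known for responses to noradrenaline, adenosine and neuropeptides, and many of its genes are also strongly expressed in neurons.

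Expected counts summed to 1733140 to 2334240 a library, and of these the 99 genes took between 1.00% and 1.06% a library in diencephalon, against 1.2% to 1.23% in cortical grey matter. Astrocyte markers were present in every library, with a sum over 12 genes of 17531 to 20718 CPM (the count as a share of the library, scaled by TMM) in diencephalon and 27559 to 34253 CPM in cortical grey matter. Of these 12 genes, 6 passed as lower in diencephalon in the test given below and 0 as higher. Slc1a2 weighed most in the sum, with 8432 to 9828 CPM in diencephalon and 14206 to 18062 CPM in cortical grey matter. Markers of other cells were present too. Sums in diencephalon against cortical grey matter were 659.5 to 1012 against 4884 to 5774 CPM for 9 markers of cortical excitatory neurons, 337 to 519 against 24.5 to 26.1 CPM for 10 of subcortical excitatory and neuropeptide neurons, and 1723 to 1813 against 2463 to 3476 CPM for 6 general neuron markers. They were 1692 to 2250 against 762 to 997 CPM for 8 oligodendrocyte markers, 240.4 to 429 against 323 to 729.8 CPM for 7 microglial markers and 62.7 to 93.6 against 150.3 to 252 CPM for 7 pericyte and smooth muscle markers. For 6 meningeal fibroblast markers they were 409.7 to 659 against 3366 to 6301 CPM, and for 6 of choroid plexus and ependyma 91.8 to 125 against 4.35 to 28.7 CPM. Camk2a made up most of the sum of cortical excitatory neuron markers, and Ptgds most of the meningeal sum. All 9 and all 6 genes of these lists passed as lower in diencephalon. The 6 general neuron markers were mixed: 2 passed as lower (Snap25, which weighed most in the sum, and Rbfox3) and 1 as higher (Stmn2). Endothelial markers (6 genes) summed to 41.7 to 60.8 against 96.9 to 135 CPM, and oligodendrocyte progenitor markers (3 genes) to 63.2 to 75.4 against 125 to 146 CPM. Of the tested genes, 2 of 3 endothelial, 2 of 3 pericyte and smooth muscle and 2 of 6 microglial markers passed as lower. For choroid plexus and ependyma 2 of 3 passed as higher, and Ttr weighed most in the diencephalic sum. Cortical grey matter replicate 3 differed more from the other cortical libraries (chi-square per degree of freedom 7.39 and 6.31) than those did from each other (2.70). Diencephalon replicate 2 and cortical grey matter replicate 3 had 8.44 and 0 CPM of summed Y-linked genes, against 145 to 166 CPM in the other 4 libraries. In bulk libraries such as these, fewer cells of a type and less RNA per cell cannot be told apart, and the part of other cells in the differences below was not tested.

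Cyclic AMP also acts back on genes through the cyclic AMP response element, whose full palindrome reads TGACGTCA and whose core is here taken as TGACGT on either strand. RefSeq promoter windows (build GRCm38, from 250 bases before to 50 after the start) were matched by symbol for 74 of the 99 genes. The 25 genes without a window include Adcy8, Gnal, Gnaz, Pde3a, Pde3b and Rgs20, which differed between the regions. The core lay in windows of 6 of these genes, or 8.11%, against 8.37% of all 27025 genes with a window, a share by gene near the background. Counted by window, it lay in 5.74% of 122 windows of members and 7.51% of all 32851. The full palindrome lay in 1 of the 74, Prkar1a, against 2.03% of all genes; each full palindrome also holds the core on both strands. The genes with a core were Adcy9, Gng4, Pde4a, Pde4b, Prkar1a and Rgs2, and only Adcy9 and Rgs2 among them differed between the regions. The 3 windows below are shown because 2 belong to genes that differed and 1 holds the full palindrome; capitals mark the core or palindrome, and the letters run 5′ to 3′ on the strand of the gene.
Rgs2, chr1:144004100-144004399, minus strand, with the core starting 186 bases before the start: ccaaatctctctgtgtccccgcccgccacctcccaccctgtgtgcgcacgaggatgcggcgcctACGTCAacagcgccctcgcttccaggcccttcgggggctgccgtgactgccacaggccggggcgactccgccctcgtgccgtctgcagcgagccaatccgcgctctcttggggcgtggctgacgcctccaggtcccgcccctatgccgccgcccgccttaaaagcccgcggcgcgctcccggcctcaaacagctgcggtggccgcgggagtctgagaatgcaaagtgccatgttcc
Adcy9, chr16:4420449-4420748, minus strand, with the core starting 24 bases before the start: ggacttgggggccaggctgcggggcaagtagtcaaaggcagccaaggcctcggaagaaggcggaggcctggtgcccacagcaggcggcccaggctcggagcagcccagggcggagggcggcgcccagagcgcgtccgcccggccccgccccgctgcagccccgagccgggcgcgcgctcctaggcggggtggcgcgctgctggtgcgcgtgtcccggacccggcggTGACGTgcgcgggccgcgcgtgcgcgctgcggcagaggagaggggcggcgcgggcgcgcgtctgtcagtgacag
Prkar1a, chr11:109650699-109650998, plus strand, with the palindrome starting 49 bases before the start: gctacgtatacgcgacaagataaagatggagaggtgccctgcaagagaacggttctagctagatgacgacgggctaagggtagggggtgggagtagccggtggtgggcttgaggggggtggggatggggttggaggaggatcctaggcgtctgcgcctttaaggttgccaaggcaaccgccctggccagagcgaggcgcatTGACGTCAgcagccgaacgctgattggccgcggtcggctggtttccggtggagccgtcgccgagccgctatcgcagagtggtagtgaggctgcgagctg

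The comparison asked which of these genes differ in ribosome-bound mRNA between the diencephalic and the cortical libraries, which also hold markers of cells other than astrocytes. Of 68 tested members, 12 were higher and 18 lower in diencephalon (quasi-likelihood test in edgeR, at 0.05 after Benjamini-Hochberg adjustment over all tested genes). That is 44.1% of the tested members, where 29.6% of all 10568 tested genes passed, 14.9% as higher and 14.8% as lower. Libraries of the regions did not overlap in 37 of the 68, where this held for 42.6% of all tested genes. The median log2 difference was -0.17 over the tested members and 0.01 over all tested genes. Tested members were also more abundant than most genes, with a median of 75.7 CPM against 31.9 CPM over all tested genes. A change past the threshold with a fitted difference of more than 2-fold was found for 15 members, 7 higher and 8 lower, or 22.1% of those tested, where 12.3% of all tested genes reached this. On the scale of the deposited TPM, which moved the median of all genes to 0.22 (log2), 77 members were tested with limma and 16 were higher and 12 lower; the scale, the test and the filter all differ from those above. By family, the genes that passed were 6 of 10 tested G alpha genes, 1 of 5 G beta, 2 of 7 G gamma, 8 of 13 RGS, 5 of 8 cyclase, 8 of 19 phosphodiesterase and none of 6 PKA genes, with 3 of the PKA genes at an unadjusted p under 0.05. An unadjusted p under 0.05 was found for 4167 of all 10568 tested genes. Differences between the families were not tested.

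**Figure D1:**
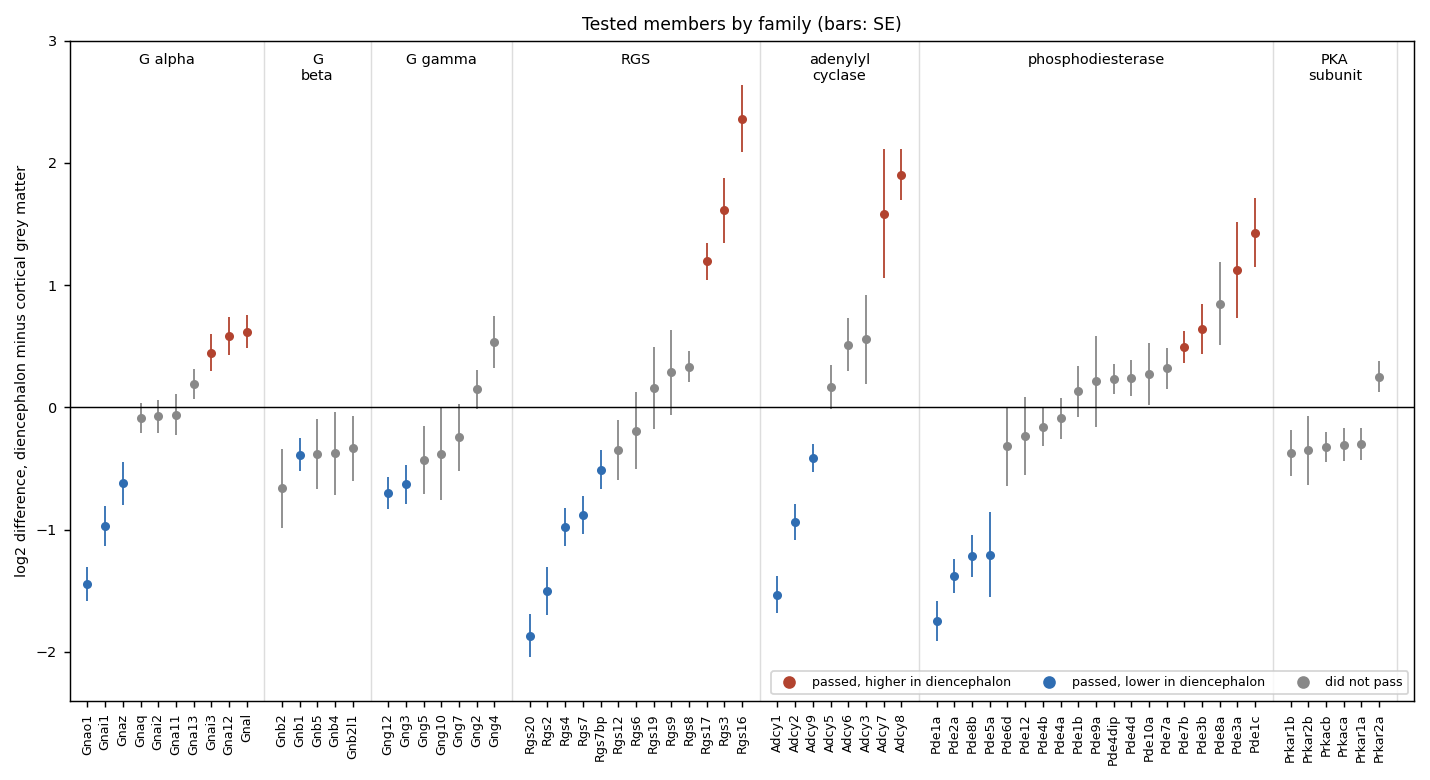
Log2 difference (diencephalon minus cortical grey matter) with its standard error for each of the 68 tested members, by family. Points that passed the test are red where higher and blue where lower in diencephalon; the largest spread is among RGS genes, from -1.87 for Rgs20 to 2.36 for Rgs16, while the 6 PKA genes lie between -0.37 and 0.25.

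Among the G alpha subunits, 3 fell and 3 rose in diencephalon. The 3 that fell, Gnao1, Gnai1 and Gnaz, all belong to the Gi class, but so does Gnai3, which rose. Gnao1, the alpha subunit of Go and the most abundant one on the TPM scale, had 626, 613 and 499.6 CPM in the diencephalic libraries, against 1601, 1713 and 1408 CPM in the cortical ones. Every diencephalic library lay below every cortical one, and the gene was 2.72-fold lower (adjusted p by edgeR 6.10e-08). Gnai1 had 102, 107 and 84.7 CPM in the diencephalic libraries, against 159, 167 and 252 CPM in the cortical ones, with cortical grey matter replicate 3 highest and no overlap (log2 difference -0.97 ± 0.17 SE, adjusted p by edgeR 0.00013). Gnaz, whose product Gz is resistant to pertussis toxin, had 45.4, 49 and 70.0 CPM in the diencephalic libraries, against 79.4, 77.2 and 96.9 CPM in the cortical ones. Its groups did not overlap, but diencephalon replicate 3 came close to the lowest cortical library (log2 difference -0.62 ± 0.18, adjusted p by edgeR 0.0112).

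Gnal, which encodes the Golf subunit that stimulates cyclase in olfactory and striatal neurons, had 472, 407 and 346 CPM in the diencephalic libraries, against 254, 292 and 251 CPM in the cortical ones. It was 1.54-fold higher without overlap (adjusted p by edgeR 0.00108). Gna12, of the G12 class, had 105, 134 and 105 CPM in the diencephalic libraries, against 88.6, 71.9 and 67.7 CPM in the cortical ones, again with the groups apart (log2 difference 0.58 ± 0.15, adjusted p by edgeR 0.00625). Gnai3 had 82.3, 83.3 and 93.5 CPM in the diencephalic libraries, against 65.4, 62.3 and 62.1 CPM in the cortical ones, a small difference with little spread in cortical grey matter (1.36-fold higher, adjusted p by edgeR 0.0286). The other 4 tested alpha genes did not pass. Gnaq and Gna11, the Gq class, had log2 differences of -0.09 ± 0.12 and -0.06 ± 0.17 (adjusted p by edgeR 0.634 and 0.828, 95% intervals -0.34 to 0.16 and -0.41 to 0.29). Gnai2 was at -0.07 ± 0.13 and Gna13, the other gene of the G12 class, at 0.19 ± 0.12 (adjusted p by edgeR 0.721 and 0.247). Gna13 passed as higher on the TPM scale (adjusted p over the alternatives 0.0416 to 0.60). Of the 5 alpha genes that were not tested, the photoreceptor and taste subunits Gnat1 and Gnat3 had no count, and Gnat2, Gna14 and Gna15 had 1, 4 and 7 counts in all 6 libraries together.

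The calls for Gnao1, Gnai1 and Gnal held under all 17 alternatives. The call for Gna12 was lost without diencephalon replicate 2 (adjusted p by edgeR 0.0663, adjusted p over the alternatives 0.00178 to 0.0663). The Gnaz call was lost without diencephalon replicate 1 or 2 (adjusted p by edgeR 0.0626 and 0.0569) and on the TPM scale (adjusted p over the alternatives 0.00215 to 0.149). Gnai3 did not pass without diencephalon replicate 2 or 3 or cortical grey matter replicate 1 or 2 (adjusted p by edgeR 0.0623, 0.115, 0.0611 and 0.0853), nor on all 6 libraries with DESeq2 (0.0667) or with the length trend removed (0.0671; adjusted p over the alternatives 0.00865 to 0.115).

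Beta and gamma subunits form the stable dimer that anchors the alpha subunit and signals to channels and cyclases. Of 12 tested genes, among them the name match Gnb2l1, 3 fell and none rose, where 14.8% of all tested genes were lower and 14.9% higher. Gnb1, which made up 82.6% ± 3.96 of the summed beta subunit TPM in diencephalon and 81.8% ± 1.2 in cortical grey matter, as mean ± SD over 3 libraries a region, had 276, 244 and 198 CPM in the diencephalic libraries, against 351, 303 and 284 CPM in the cortical ones. The highest diencephalic library came close to the lowest cortical one (log2 difference -0.39 ± 0.14, adjusted p by edgeR 0.0362). The call was lost without diencephalon replicate 2 or 3 or cortical grey matter replicate 1 or 2 (adjusted p by edgeR 0.0838, 0.22, 0.158 and 0.0608) and on the TPM scale (adjusted p over the alternatives 0.00537 to 0.434). Gnb2, Gnb4, Gnb5 (the partner of the R7 group of RGS proteins) and the name match Gnb2l1 were all at low levels, with log2 differences of -0.66, -0.38, -0.38 and -0.34 that did not pass. Gnb3, a subunit of cone photoreceptors, had no count, and the name match Gnb1l had 1 in diencephalon and 4 in cortical grey matter.

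Among the gamma subunits, Gng12 had 106, 106 and 94.6 CPM in the diencephalic libraries, against 168, 155 and 175 CPM in the cortical ones. The 3 libraries of each region lay close together and far from the other region (log2 difference -0.70 ± 0.13, adjusted p by edgeR 0.000264). Gng3, a neuronal gamma subunit and the most abundant one on the TPM scale, had 156, 196 and 151 CPM in the diencephalic libraries, against 213, 237 and 331 CPM in the cortical ones, and cortical grey matter replicate 3 was highest. It was 1.55-fold lower (adjusted p by edgeR 0.00416), a call that was lost on the TPM scale (adjusted p over the alternatives 4.10e-05 to 0.153). Gng4 was the gamma gene nearest to passing as higher, with 37.4, 44.8 and 48.1 CPM in diencephalon and 37.5, 22.4 and 29.2 CPM in cortical grey matter (log2 difference 0.53 ± 0.21, adjusted p by edgeR 0.0645). It passed on the TPM scale, with a term for little Y-linked signal and without cortical grey matter replicate 1, which overlapped the diencephalic range (adjusted p by edgeR 0.0278, adjusted p over the alternatives 0.0278 to 0.284). Gng2, Gng5, Gng7 and Gng10 had log2 differences of 0.15, -0.43, -0.25 and -0.38 and did not pass. The remaining 5 gamma genes, Gng8, Gng11, Gng13, Gngt1 and Gngt2, had at most 7 counts each over all libraries.

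Of 13 tested RGS genes 3 rose, Rgs16, Rgs3 and Rgs17, and 5 fell, Rgs20, Rgs2, Rgs4, Rgs7 and Rgs7bp. Rgs16, a small R4 RGS protein that acts on Gi and Gq subunits, had 66, 89.1 and 40.8 CPM in the diencephalic libraries, against 11.3, 15.4 and 11.2 CPM in the cortical ones. The diencephalic libraries varied by more than the cortical ones, yet the lowest of them was above all of these, and the gene was 5.14-fold higher (adjusted p by edgeR 1.44e-06). Rgs3, of the same R4 group, had 39.8, 26.9 and 29.8 CPM in the diencephalic libraries, against 10.9, 12.2 and 8.07 CPM in the cortical ones, a 3.06-fold difference without overlap (adjusted p by edgeR 6.57e-05). Rgs17, of the RZ group that acts on Gz and other Gi subunits, was the RGS gene with the highest CPM in diencephalon. It had 1050.3, 1169.5 and 1512 CPM in the diencephalic libraries, against 522, 466 and 644 CPM in the cortical ones, so that each diencephalic library lay well above the highest cortical one (log2 difference 1.19 ± 0.15, adjusted p by edgeR 3.46e-06).

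Rgs20, another RZ member, moved the opposite way. It had 76.7, 48 and 49.1 CPM in the diencephalic libraries, against 182, 254 and 202 CPM in the cortical ones, and the highest diencephalic library was far below the lowest cortical one (3.65-fold lower, adjusted p by edgeR 1.05e-07). Rgs17 was 31.3% ± 6.36 of the summed TPM of the RGS family in diencephalon and 12.1% ± 2.13 in cortical grey matter, and Rgs20 was 7.29% ± 1.88 in diencephalon and 23.5% ± 2.58 in cortical grey matter, as mean ± SD over 3 libraries a region. The sum itself was not tested; it was 1822 ± 38.1 TPM in diencephalon and 1808 ± 193 TPM in cortical grey matter. Rgs2, which acts mainly on Gq and whose promoter is printed above, had 30.4, 26.4 and 24.6 CPM in the diencephalic libraries, against 59.8, 79.3 and 93.8 CPM in the cortical ones. The diencephalic libraries were close together, the cortical ones spread, and the groups were well apart (2.83-fold lower, adjusted p by edgeR 4.68e-06). Rgs4, a brain regulator of Gi and Gq signals, had 267, 173 and 216 CPM in the diencephalic libraries, against 346, 496 and 455 CPM in the cortical ones, without overlap (log2 difference -0.98 ± 0.16, adjusted p by edgeR 8.33e-05).

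Rgs7, of the R7 group that pairs with Gnb5, had 58.9, 56.9 and 45.5 CPM in the diencephalic libraries, against 97.3, 97.4 and 104 CPM in the cortical ones, and was 1.84-fold lower with both groups tight (adjusted p by edgeR 0.000153). Its membrane anchor Rgs7bp, a binding protein without an RGS domain, had 559.5, 532 and 471 CPM in the diencephalic libraries, against 553, 718 and 955 CPM in the cortical ones. These groups overlapped, since cortical grey matter replicate 1 lay below diencephalon replicate 1 (log2 difference -0.51 ± 0.16, adjusted p by edgeR 0.0216). The Rgs7bp call was lost without diencephalon replicate 2 or 3 or cortical grey matter replicate 3 (adjusted p by edgeR 0.058, 0.116 and 0.0644) and on the TPM scale (adjusted p over the alternatives 0.00108 to 0.351). The calls for the other 7 RGS genes held under all 17 alternatives. Rgs8, an R4 member, had 722, 713 and 606 CPM in diencephalon and 507, 503 and 611 CPM in cortical grey matter. It did not pass (adjusted p by edgeR 0.0571), and passed as higher without cortical grey matter replicate 3 (adjusted p by edgeR 0.00461) and on the TPM scale (adjusted p over the alternatives 0.00461 to 0.213), with limma voom, with a minimum count of 30 and with a term for little Y-linked signal. Rgs6, Rgs9, Rgs12 and Rgs19 had log2 differences of -0.19, 0.29, -0.35 and 0.16 and did not pass.

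Of the 10 RGS genes with too few counts to test, 2 differed in summed counts beyond their counting interval, Rgs11 and Rgs14, and Rgs9bp was found in diencephalon only. Rgs11, an R7 gene, had 27 counts in diencephalon and 2 in cortical grey matter, a ratio of 13.1 (95% exact counting interval 3.30 to 114). Rgs9bp, a membrane anchor known from photoreceptors, had 16 counts in diencephalon and 0 in cortical grey matter. With the cortical sum set to a floor of 3 counts it was at least 5.18-fold higher in diencephalon. Rgs14, an R12 gene, had 2 counts in diencephalon and 16 in cortical grey matter, so that the ratio of cortical grey matter to diencephalon was 8.23 (1.94 to 73.8). These 3 were chosen after their counts were seen, and intervals and floors cover counting error only. Tested without a count filter, Rgs11 and Rgs9bp passed as higher (adjusted p by edgeR 0.00136 and 0.00391) and Rgs14 did not pass (0.0509). Rgs5, a pericyte gene, had 16 counts in diencephalon and 20 in cortical grey matter, and Rgs10, known from microglia, had 20 in diencephalon and 28 in cortical grey matter. The remaining 5 of these genes, Rgs1, Rgs13, Rgs18, Rgs21 and Rgs22, had 0 to 13 counts in all.

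**Figure D2:**
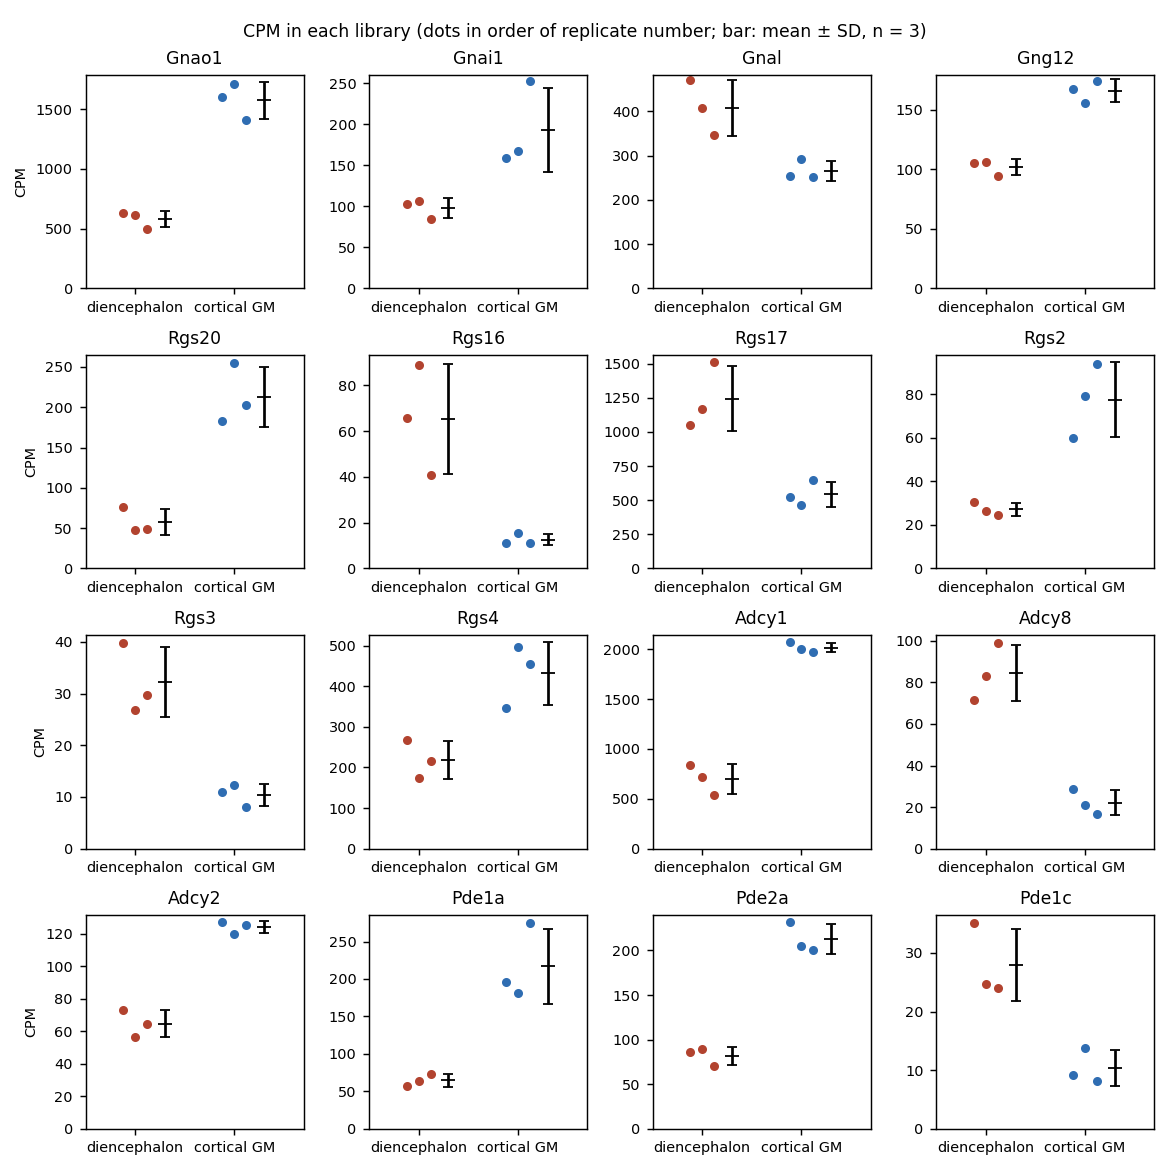
CPM of 16 members in each library, diencephalon in red and cortical grey matter in blue, with the mean and SD of 3 libraries beside the points; each vertical axis starts at 0. In every panel the libraries of the regions do not overlap, with Gnal, Rgs16, Rgs17, Rgs3, Adcy8 and Pde1c above and the other 10 below in diencephalon.

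Adenylyl cyclases differed in 5 of 8 tested genes, 3 lower and 2 higher. The pair of cyclases that calcium and calmodulin stimulate most directly, Adcy1 and Adcy8, went in opposite directions. Adcy1, the most abundant cyclase on both scales, had 838, 719 and 534 CPM in the diencephalic libraries, against 2068, 2003 and 1975 CPM in the cortical ones. The cortical libraries were close together and all far above the highest diencephalic one (2.89-fold lower, adjusted p by edgeR 1.00e-07). Adcy8 had 71.6, 83.3 and 98.8 CPM in the diencephalic libraries, against 28.8, 20.8 and 16.8 CPM in the cortical ones, again with the groups far apart (3.74-fold higher, adjusted p by edgeR 3.40e-07). On the TPM scale Adcy1 was 35.9% ± 6.56 of the summed cyclases in diencephalon and 60.4% ± 0.93 in cortical grey matter, and Adcy8 was 11% ± 2.17 in diencephalon and 1.67% ± 0.43 in cortical grey matter, as mean ± SD over 3 libraries a region.

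The cyclases that G beta gamma dimers stimulate also split. Adcy2 had 73, 56.4 and 64.3 CPM in the diencephalic libraries, against 127, 119.8 and 125 CPM in the cortical ones, with both groups tight (1.92-fold lower, adjusted p by edgeR 3.26e-05). Adcy7 was near the limit of detection, at 7.49, 5.8 and 10.5 CPM in the diencephalic libraries, against 1.75, 5.32 and 0.621 CPM in the cortical ones (log2 difference 1.59 ± 0.53, adjusted p by edgeR 0.0278). Cortical grey matter replicate 2 came close to the lowest diencephalic library, and the call was lost without diencephalon replicate 1 or 3 or cortical grey matter replicate 1 or 3 (adjusted p by edgeR 0.0623, 0.151, 0.127 and 0.0857), with DESeq2 (0.0628) and on the TPM scale (adjusted p over the alternatives 0.00635 to 0.151). Without cortical grey matter replicate 2 the log2 difference was 2.58. Adcy9, the cyclase least sensitive to forskolin, had 272, 272 and 285 CPM in the diencephalic libraries, against 363, 361 and 380.1 CPM in the cortical ones. The difference was small but larger than the spread in either region (1.33-fold lower, adjusted p by edgeR 0.00992), and it did not pass on the TPM scale (adjusted p over the alternatives 0.00168 to 0.273).

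The remaining cyclases did not pass. Adcy6, which calcium inhibits, had 30.9, 40.1 and 47.6 CPM in diencephalon and 31.4, 27.2 and 23.6 CPM in cortical grey matter (log2 difference 0.51 ± 0.22, adjusted p by edgeR 0.0787). It passed as higher without diencephalon replicate 1 (adjusted p by edgeR 0.0388, adjusted p over the alternatives 0.0388 to 0.326). Adcy5, its close relative and the main striatal cyclase, was at 89.1 ± 14.6 CPM in diencephalon, against 79.4 ± 20.4 CPM in cortical grey matter (mean ± SD over 3 libraries; adjusted p by edgeR 0.518). Adcy3, found in neuronal cilia, had 21.1, 23.7 and 26.1 CPM in diencephalon and 20.5, 21.8 and 4.35 CPM in cortical grey matter, and cortical grey matter replicate 3 stood below the other 5 libraries (adjusted p by edgeR 0.279). Adcy4, of which 6 counts were found in all, and the soluble cyclase Adcy10, which had none, were not tested. Summed over the 10 genes, cyclase TPM was 583 ± 21.7 in diencephalon and 874 ± 25.9 in cortical grey matter, while the sums for phosphodiesterases were 1375 ± 49.3 TPM in diencephalon and 1396 ± 211 TPM in cortical grey matter, and those for PKA subunits 829 ± 54.4 TPM in diencephalon and 851 ± 80.1 TPM in cortical grey matter, as mean ± SD over 3 libraries a region. These sums were not tested.

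**Figure D3:**
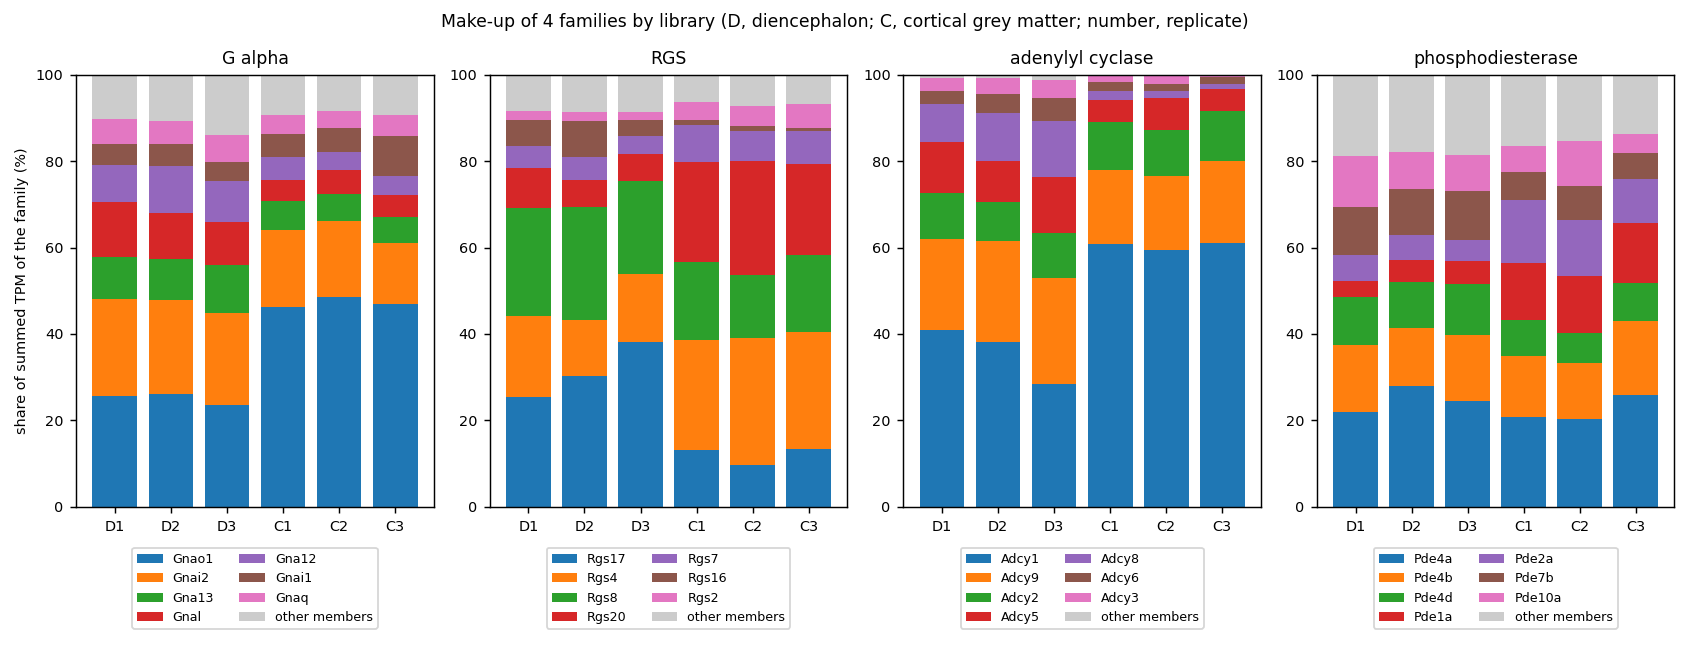
Share of each member in the summed TPM of its family, in percent, for 4 families and all 6 libraries; the 7 largest members are coloured and the rest are grey, and genes that share only a family's name are left out. Gnao1 takes 25.1% of the alpha subunits in diencephalon and 47.3% in cortical grey matter on average, Adcy1 takes 35.9% of the cyclases in diencephalon and 60.4% in cortical grey matter, and Pde4a 24.8% of the phosphodiesterases in diencephalon and 22.3% in cortical grey matter.

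Of 19 tested phosphodiesterase genes 4 rose and 4 fell in diencephalon. Among enzymes that break down both cyclic nucleotides, the calmodulin-dependent Pde1 genes moved apart. Pde1a had 56.6, 63.3 and 73.7 CPM in the diencephalic libraries, against 196, 182 and 275 CPM in the cortical ones. The diencephalic libraries were all far below the lowest cortical one (3.36-fold lower, adjusted p by edgeR 4.32e-08). Pde1c had 35.1, 24.8 and 24 CPM in the diencephalic libraries, against 9.16, 13.8 and 8.07 CPM in the cortical ones, a 2.69-fold difference in the other direction without overlap (adjusted p by edgeR 0.00046). Pde1b, the third member, was at 38.2 ± 7.91 CPM in diencephalon, against 34.7 ± 5.38 CPM in cortical grey matter, as mean ± SD over 3 libraries a region, with a log2 difference of 0.13 ± 0.21, and did not pass. Pde2a, which cyclic GMP activates, had 86.1, 89.1 and 70.0 CPM in the diencephalic libraries, against 232, 205 and 201 CPM in the cortical ones, well apart (2.6-fold lower, adjusted p by edgeR 9.78e-08).

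The enzymes that cyclic GMP inhibits were both higher. Pde3a had 7.95, 12.7 and 10.5 CPM in the diencephalic libraries, against 4.36, 3.73 and 6.21 CPM in the cortical ones. Pde3b had 37, 44.8 and 40.2 CPM in the diencephalic libraries, against 30.1, 25.6 and 21.7 CPM in the cortical ones. Neither pair of groups overlapped (log2 differences 1.12 ± 0.39 and 0.64 ± 0.21, adjusted p by edgeR 0.0353 and 0.022). The call for Pde3a was lost without diencephalon replicate 2 or 3 or cortical grey matter replicate 1 or 2 (adjusted p by edgeR 0.159, 0.0934, 0.105 and 0.128), with DESeq2 (0.0955), with a replicate block (0.0536), with the length trend removed (0.0563) and on the TPM scale (adjusted p over the alternatives 0.0241 to 0.159). The call for Pde3b was lost without diencephalon replicate 2 or 3 or cortical grey matter replicate 2 or 3 (adjusted p by edgeR 0.0973, 0.0594, 0.0666 and 0.0651), with DESeq2 (0.0536) and with the length trend removed (0.0511; adjusted p over the alternatives 0.0159 to 0.0973).

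Among the enzymes specific for cyclic AMP, Pde8b had 36, 32.2 and 29.8 CPM in the diencephalic libraries, against 79.4, 69.7 and 78.9 CPM in the cortical ones, with both groups tight (2.32-fold lower, adjusted p by edgeR 1.34e-05). Pde7b had 161, 162 and 168 CPM in the diencephalic libraries, against 103, 125 and 124 CPM in the cortical ones (1.41-fold higher, adjusted p by edgeR 0.00664). Its diencephalic libraries were close together and lay above all cortical ones; without cortical grey matter replicate 1 the call was lost (adjusted p by edgeR 0.0571, adjusted p over the alternatives 0.00246 to 0.0571). Pde8a, the relative of Pde8b, had 11.7, 12.7 and 12 CPM in diencephalon and 7.42, 7.45 and 4.97 CPM in cortical grey matter, with no overlap but few counts, and did not pass (adjusted p by edgeR 0.0659, adjusted p over the alternatives 0.0295 to 0.166). Of the cyclic GMP enzymes, Pde5a, the target of sildenafil, had 10.3, 4.75 and 5.23 CPM in the diencephalic libraries, against 14.8, 14.9 and 18 CPM in the cortical ones, without overlap (log2 difference -1.20 ± 0.35, adjusted p by edgeR 0.0112). The Pde5a call was lost without diencephalon replicate 2 or 3 (adjusted p by edgeR 0.0593 and 0.0615) and on the TPM scale (adjusted p over the alternatives 0.00346 to 0.15). Pde9a, at 10.2 ± 3.68 CPM in diencephalon, against 8.69 ± 2.58 CPM in cortical grey matter, as mean ± SD over 3 libraries a region, did not pass.

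Pde4a, Pde4b and Pde4d, which encode rolipram-sensitive enzymes, had the highest mean TPM of the phosphodiesterase genes in diencephalon. In cortical grey matter Pde1a and Pde2a came before Pde4d. Pde4a had 324, 431 and 362 CPM in diencephalon and 336, 328 and 525 CPM in cortical grey matter. Pde4b had 217, 205 and 213 CPM in diencephalon and 205, 189 and 316 CPM in cortical grey matter. Pde4d had 283, 282 and 301 CPM in diencephalon and 232, 193 and 311 CPM in cortical grey matter. In each of the 3 genes cortical grey matter replicate 3 was above the other cortical libraries and above all diencephalic ones. None passed (log2 differences -0.09 ± 0.17, -0.16 ± 0.16 and 0.24 ± 0.15, adjusted p by edgeR 0.736, 0.494 and 0.235). Without that library Pde4d passed as higher (adjusted p by edgeR 0.00552, adjusted p over the alternatives 0.00552 to 0.732), and so did Pde7a (adjusted p by edgeR 0.00138, adjusted p over the alternatives 0.00138 to 0.507), which had 129.6, 142 and 155 CPM in diencephalon and 96.4, 92.6 and 155 CPM in cortical grey matter. That library also had the highest sums of microglial markers, 729.8 CPM against 240.4 to 474 CPM in the other 5, of general neuron markers, 3476 CPM against 1723 to 2678 CPM, and of cortical excitatory neuron markers, 5774 CPM against 659.5 to 5306 CPM. Its astrocyte sum, 27559 CPM, was the lowest of the cortical libraries. The part of these cells in the values was not tested. The name matches Pde4dip, Pde6d and Pde12 had log2 differences of 0.23, -0.32 and -0.23 and did not pass. Pde4c and the photoreceptor genes Pde6a, Pde6b, Pde6c, Pde6g and Pde6h had 0 or 1 count, and Pde11a had 7.

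None of the 6 PKA subunit genes passed in edgeR, 3 had an unadjusted p under 0.05, and in 5 no library of one region reached into the range of the other, where 42.6% of all tested genes had such groups. Over all genes, 4167 of the 10568 tested had an unadjusted p under 0.05. DESeq2 also called none of the 6 PKA genes. For the catalytic subunits, Prkacb had 227, 273 and 272 CPM in diencephalon and 316, 307 and 342 CPM in cortical grey matter. Prkaca had 96.8, 111 and 103 CPM in diencephalon and 123, 129 and 133 CPM in cortical grey matter. In both genes every diencephalic library lay below every cortical one (log2 differences -0.32 ± 0.12 and -0.30 ± 0.13, adjusted p by edgeR 0.0533 and 0.0876, 95% intervals -0.58 to -0.07 and -0.58 to -0.03). Prkacb passed with limma voom (0.0493) and in edgeR with the length trend removed (0.0141) or with a term for little Y-linked signal (0.0263; adjusted p over the alternatives 0.0141 to 0.541). Of the regulatory subunits, Prkar1a, for which the full palindrome is printed above, was at 155 ± 11.5 CPM in diencephalon, against 191 ± 19.2 CPM in cortical grey matter (mean ± SD over 3 libraries; log2 difference -0.30 ± 0.13, adjusted p by edgeR 0.0862); it passed with the length trend removed (0.0346, adjusted p over the alternatives 0.0346 to 0.664). Prkar2a lay in the other direction, at 145 ± 8.58 CPM in diencephalon, against 122 ± 8.52 CPM in cortical grey matter (log2 difference 0.25 ± 0.13, adjusted p by edgeR 0.153), and passed as higher on the TPM scale (adjusted p over the alternatives 0.034 to 0.406). Prkar1b had 55.2, 58.5 and 56.4 CPM in diencephalon and 76.4, 52.7 and 91.9 CPM in cortical grey matter, and passed as lower without cortical grey matter replicate 2 (adjusted p by edgeR 0.0251, adjusted p over the alternatives 0.0251 to 0.684). Prkar2b was at 12.5 ± 1.19 CPM in diencephalon, against 15.9 ± 2.37 CPM in cortical grey matter and did not pass.

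Some members that did not pass varied between libraries of the same region in a shared way. Pde10a, a phosphodiesterase that is abundant in striatal spiny neurons, had 335, 249 and 234 CPM in diencephalon and 186, 324 and 166 CPM in cortical grey matter. Rgs9, the striatal R7 protein, had 36, 17.4 and 24.6 CPM in diencephalon and 16.6, 35.1 and 12.4 CPM in cortical grey matter. Gng7, the gamma subunit that pairs with Golf there, had 59.9, 41.1 and 30.8 CPM in diencephalon and 44.5, 75.1 and 37.3 CPM in cortical grey matter. In all 3 genes diencephalon replicate 1 and cortical grey matter replicate 2 were the highest of their region. The sum of 8 striatal spiny neuron markers was 205, 112 and 108 CPM in the diencephalic libraries and 128, 225 and 86.3 CPM in the cortical ones, with the same libraries highest. Of these 8 markers, 7 were highest in diencephalon replicate 1 within that region and 6 in cortical grey matter replicate 2. The exceptions were Ppp1r1b, with 38.4, 34.1 and 13.7 CPM in cortical grey matter, and Tac1, which was low throughout, with 2.81, 4.22 and 3.66 CPM in diencephalon and 0.873, 0 and 1.86 CPM in cortical grey matter. Of the 68 tested members, 11 were highest in both of these libraries and 31 in neither. The same count was not made over all tested genes, so it does not show whether members followed this order more often than other genes. Without cortical grey matter replicate 2, Pde10a passed as higher in diencephalon (adjusted p by edgeR 0.00814, adjusted p over the alternatives 0.00814 to 0.845). Adcy5 was also highest of the cortical libraries in replicate 2 but not highest in diencephalon replicate 1, and Gnal followed the order in both regions while its groups stayed apart. These genes were set side by side after their values were seen, and whether striatal tissue contributed to any library was not tested.

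**Figure D4:**
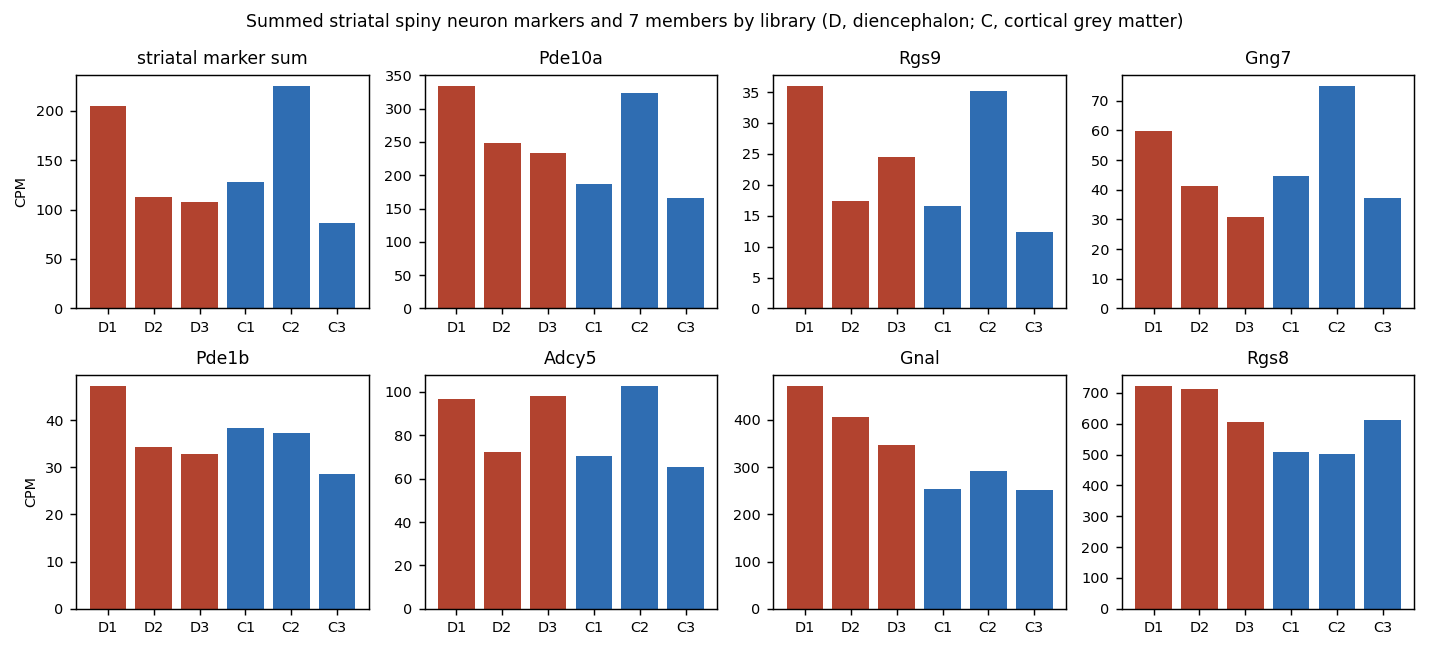
CPM in each library (D, diencephalon; C, cortical grey matter; number, replicate) of the summed markers of striatal spiny neurons and of 7 members, each axis from 0. Diencephalon replicate 1 and cortical grey matter replicate 2 are the highest of their region for the marker sum, Pde10a, Rgs9 and Gng7, whereas Rgs8 shows another order.

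The other genes of the pathway were read from 6 lists. Of 87 tested genes outside the families above, 18 were higher and 26 lower in diencephalon, a count of higher genes that became 11 without diencephalon replicate 2 or 3; over all genes 14.9% were higher and 14.8% lower. Gnas, the gene of the Gs alpha subunit, was at 814 ± 10.3 CPM in diencephalon, against 1012 ± 95 CPM in cortical grey matter, as mean ± SD over 3 libraries a region, and did not pass (log2 difference -0.31 ± 0.13, adjusted p by edgeR 0.0665). Among effectors of cyclic AMP and PKA anchors, 5 of 26 rose and 5 fell, with a median log2 difference of 0.01. Akap5, which holds PKA at synapses, had 53.8, 45.3 and 37.6 CPM in the diencephalic libraries, against 188, 226 and 224 CPM in the cortical ones (4.64-fold lower, adjusted p by edgeR 4.63e-10). Rapgef4, the exchange factor Epac2 that cyclic AMP activates directly, was 2.89-fold and the anchor gene Akap12 1.77-fold lower, while Akap2 was 2.0-fold higher (adjusted p by edgeR 2.93e-08, 0.000126 and 2.55e-06). Of 9 tested genes in the list for cyclic GMP synthesis and action, 3 fell and none rose. Gucy1a3 and Gucy1b3, which encode subunits of the nitric oxide receptor, were 1.7-fold and 1.89-fold lower (adjusted p by edgeR 0.000207 and 0.00541). Gucy1a2, another subunit gene of that receptor, named after its value was seen, did not pass (adjusted p by edgeR 0.132). It was at 313 ± 26.6 CPM in diencephalon, against 376 ± 46.7 CPM in cortical grey matter (mean ± SD). Npr3, the gene of the natriuretic peptide clearance receptor, was 2.95-fold lower (adjusted p by edgeR 0.00689). The Gucy1b3 call was lost without cortical grey matter replicate 2 (adjusted p by edgeR 0.0623, adjusted p over the alternatives 0.000162 to 0.108), and on the TPM scale, as was that for Npr3 (adjusted p over the alternatives 0.00409 to 0.17).

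Of 10 tested genes downstream of Gq, 6 were lower and 2 higher. Itpr1, the calcium release channel, had 211, 196 and 201 CPM in the diencephalic libraries, against 515, 606 and 564 CPM in the cortical ones. Its cortical libraries all lay far above the diencephalic ones (2.77-fold lower, adjusted p by edgeR 7.89e-09). The protein kinase C gene Prkcb was 3.94-fold lower and the phospholipase gene Plcb1 1.94-fold lower (adjusted p by edgeR 9.38e-09 and 2.70e-06). The higher pair, named after their values were seen, were Prkcd, at 99.6 ± 34.6 CPM in diencephalon, against 17.6 ± 5.76 CPM in cortical grey matter, and Plcb4, at 139 ± 5.67 CPM in diencephalon, against 53.1 ± 16.7 CPM in cortical grey matter, as mean ± SD over 3 libraries a region. Of 13 receptor kinases, arrestins and regulators, 4 rose (Gprin3, Grk5, Gpsm1 and, named after its value was seen, Grk4) and 1 fell, Gprin1. The Grk4 call (adjusted p by edgeR 0.0489) was lost in 10 alternatives, among them RLE factors (0.0506), no count filter (0.0649), DESeq2 (0.123) and the replicate block (0.0582), and without any 1 library other than cortical grey matter replicate 2, with 0.0763, 0.138 and 0.107 without diencephalon replicates 1, 2 and 3 and 0.182 and 0.0908 without cortical grey matter replicates 1 and 3. Grk5 was 1.61-fold higher, a call lost without diencephalon replicate 1 or 2 or cortical grey matter replicate 1 or 2 (adjusted p by edgeR 0.0956, 0.0848, 0.052 and 0.128, adjusted p over the alternatives 0.00664 to 0.128), and the Gpsm1 call was lost without any 1 of the libraries other than diencephalon replicate 2, with 0.112 and 0.165 without diencephalon replicates 1 and 3 and 0.0619, 0.117 and 0.0715 without cortical grey matter replicates 1, 2 and 3. It was also lost with the replicate block (0.0554), no count filter (0.0529), DESeq2 (0.105), limma voom (0.0536) and the length trend removed (0.0662; adjusted p over the alternatives 0.0325 to 0.165).

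Target genes that cyclic AMP is known to induce quickly, a list that holds Pde4b and Pde4d, were lower in 5 of 9 tested and higher in 1. The nuclear receptor gene Nr4a1 had 28.5, 20.6 and 23.5 CPM in the diencephalic libraries, against 152, 158 and 56.5 CPM in the cortical ones (adjusted p by edgeR 0.00611), without overlap but with a wide cortical spread, and missed the threshold without diencephalon replicate 2 (adjusted p by edgeR 0.0503, adjusted p over the alternatives 2.81e-15 to 0.0503). Nr4a2 and the phosphatase gene Dusp1 were 2.04-fold and 1.78-fold lower, and the kinase gene Sik1 was 1.94-fold higher (adjusted p by edgeR 0.00101, 0.000211 and 0.00396). Of 22 receptors, 6 rose and 6 fell. The 2 receptors of vasoactive intestinal peptide, which couple to Gs, moved apart. Vipr1 had 2.34, 2.64 and 1.57 CPM in the diencephalic libraries, against 18.8, 26.6 and 27.9 CPM in the cortical ones. Vipr2 had 13.1, 12.7 and 15.2 CPM in the diencephalic libraries, against 1.31, 2.66 and 0.621 CPM in the cortical ones. Neither gene had overlapping groups: Vipr1 was 10.8-fold lower and Vipr2 8.46-fold higher (adjusted p by edgeR 3.60e-07 and 2.61e-05). On log2(TPM + 1) the Vipr1 difference was -2.69, against -3.43 in edgeR. Npy1r, a Gi-coupled receptor of neuropeptide Y, was 3.8-fold lower and the endothelin receptor gene Ednrb 2.0-fold higher (adjusted p by edgeR 1.35e-06 and 3.50e-05).

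**Figure D5:**
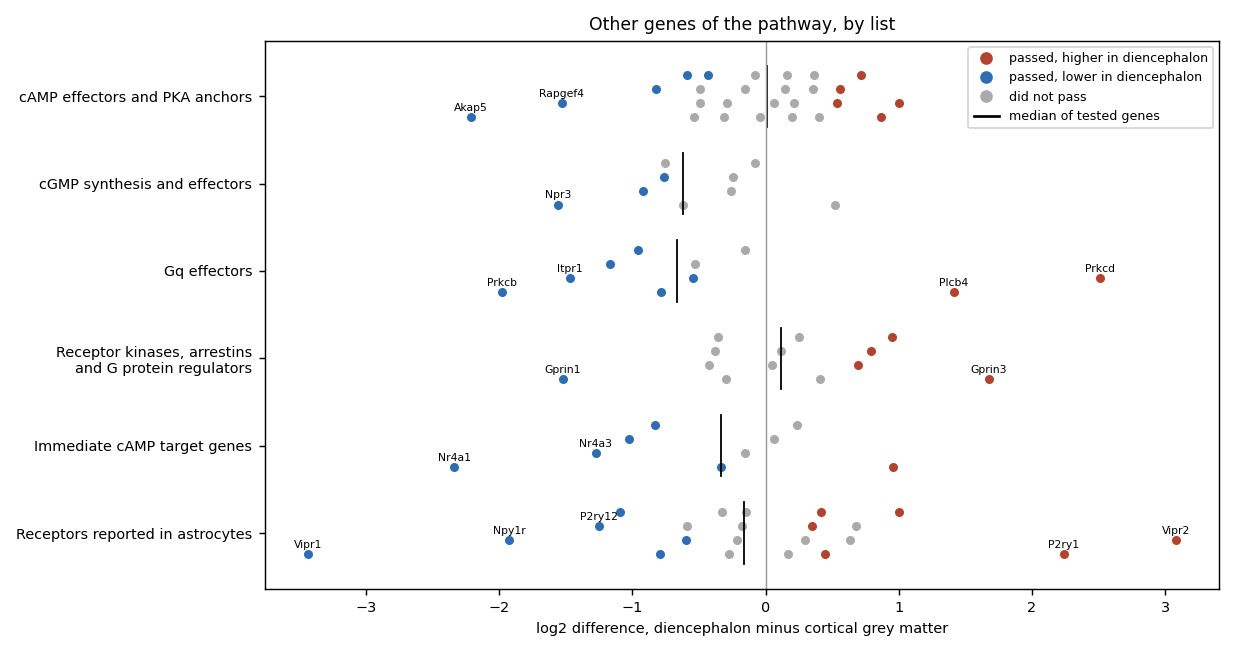
Log2 difference (diencephalon minus cortical grey matter) of the tested genes in 6 lists of other pathway genes, with the median of each list as a black line; red points passed as higher and blue points as lower in diencephalon. Medians run from -0.66 for the genes downstream of Gq to 0.11 for receptor kinases, arrestins and regulators.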

How the data were processed

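Ribosome-bound mRNA was measured in 6 libraries, 3 from diencephalon and 3 from cortical grey matter. Per the labels' protocols, amplified cDNA was made with the Ovation system and sequenced on an Ion Proton instrument. The authors quantified genes with RSEM against mm9, per the submitters' processing notes. Its version, the aligner and the use of strand were not given in the sources used here. The deposited files give expected counts, TPM, FPKM and gene lengths. The deposited expected counts (3.64% to 3.99% of values not whole) were rounded. The deposited TPM values, which the authors' RSEM run scales by effective length, served for levels between genes and as an alternative; the deposited FPKM values were not used. RSEM shares reads between similar transcripts, so close paralogs are uncertain. Without stated strand use, overlapping genes cannot be told apart.

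Genes were filtered with filterByExpr (minimum count 10), scaled by TMM and fitted with edgeR 4.0.16 in R 4.3.3 (quasi-likelihood, robust, region as only term, Benjamini-Hochberg at 0.05). Standard errors came from the F statistic. Depth gave 3 counts a value of 1.31 to 1.86 CPM. SDs are over 3 libraries, separate pools per the labels, and p-values measure the spread between pools. No unpurified tissue RNA was analysed here. Without molecular identifiers, intervals on counts and floors speak for counting error alone. Promoter sequences came from RefSeq (GRCm38.p6), not from mm9. Alternatives were RLE factors, no filter, DESeq2 1.42.0, a minimum count of 30, voom in limma 3.58.1, a replicate block, limma on log2(TPM + 1) or log2(TPM + 0.1) with a mean TPM of at least 1 or 0.1, removal of the length trend and leaving out each library. A term for low Y-linked signal (below 50 CPM, 2 libraries) was chosen after seeing the data. The code was tested on simulated counts. Summed markers came from 15 lists and pathway genes from 6. Members and lists were chosen with earlier results of these data known. By the rule for named genes, each family gave up to 6 genes past the threshold with the smallest adjusted p, the gene of highest mean TPM and those of at least 10 CPM in the higher region that did not pass; the other members are named to account for all. Each pathway list gave up to 4 genes past the threshold; 1 that the rule names is not reported here.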

Additional observations from a re-analysis of the deposited data

How the results depend on the processing

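Of the 30 members that passed, 18 passed in every alternative that tested them, 12 were lost in at least 1, and none changed sign. Counts of members ranged over the alternatives from 8 to 16 higher and 12 to 20 lower. Leaving out 1 library gave 8 to 13 higher and 14 to 18 lower members, 1145 to 1681 higher and 1186 to 1692 lower genes over all, and 11 to 15 higher pathway genes, with 11 without diencephalon replicate 2 or 3. On the TPM scale, tested with limma and with a median over all genes of 0.22, the lower genes over all numbered 958, 908 and 929 with log2(TPM + 1), log2(TPM + 0.1) and a mean TPM of at least 0.1, and the lower pathway genes 17 in the last 2 of these; genes higher were 68.9% of those called, against 50.2%. DESeq2 called 8 members higher and 18 lower.

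All 28 changes of sign were in 11 members that did not pass. In the order of the 3 TPM settings above, Gna11 was at 0.18, 0.19 and 0.18, Gnai2 at 0.14 in each, Gnaq at 0.12 in each, Pde4a at 0.14 in each, Pde4b at 0.0033, 0.0035 and 0.0033, and Rgs6 at 0.047, 0.045 and 0.047. With 1 library left out, the values ran from -0.23 to 0.12 for Gna11 (highest without cortical grey matter replicate 1), -0.54 to 0.096 for Gng7 and -0.0082 to 0.49 for Pde9a (sign changed without replicate 2 of that region), -0.30 to 0.096 for Pde4b (without replicate 3) and -0.21 to 0.16 for Pde4a (0.16 without replicate 3, and 0.0026 without diencephalon replicate 1). Those of Pde1b ran from -0.060 to 0.23 and of Rgs9 from -0.034 to 0.82 (lowest without diencephalon replicate 1), and of Rgs6 from -0.40 to 0.12 (highest without replicate 3 of that region). With the length trend removed, Gng5 was at 0.13. That trend ran from a median log2 difference of -0.35 in the decile of shortest tested genes, which holds Gng5, to 0.15 in the decile of longest. The cause of these changes of sign was not tested.

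The replicate numbers were not taken as pairs. Deviations of same-numbered libraries correlated at 0.0587, -0.0988 and 0.00337 across genes, and no diencephalic library correlated best with its own number. Cortical grey matter replicate 1 did, narrowly, with 0.0587 for diencephalon replicate 1, against -0.119 and 0.0564 for replicates 2 and 3. The highest values were across numbers. Diencephalon replicate 2 correlated at 0.177 with cortical grey matter replicate 3, both with little Y-linked signal. Diencephalon replicate 1 correlated at 0.154 with cortical grey matter replicate 2, both highest of their region in summed striatal markers. Pairs across numbers were not tested. With the replicate block, 11 members were higher and 18 lower, and 1506 genes higher and 1531 lower over all; Pde3a was the 1 member lost, and of the pathway genes named, Gpsm1 and Grk4 were lost.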
